A study of Mus musculus with 16 samples.

Results

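The mature miRNA mmu-miR-29a-3p, here miR-29a-3p, was followed across 16 small RNA libraries of mouse blastocyst fragments, as 1 of 1978 mature miRNA names listed in every library. It was chosen by name, because its level was high in blastocysts treated with an mTOR inhibitor, so its levels in those libraries are described here without a test. A laser had been used to divide each blastocyst, so that polar fragments contain the inner cell mass and mural fragments the trophectoderm away from it. Each piece came from normal blastocysts at embryonic day 4.5 (called WT, n = 2 libraries per piece), from blastocysts paused in vivo at EDG 7.5 (diapaused, n = 3 per piece) and from blastocysts paused with the inhibitor (mTORi, n = 3 per piece). The labels give no strain, genotype, inhibitor name, dose or embryonic day for the mTORi blastocysts, and no number of embryos per library. Age and treatment therefore cannot be told apart in any comparison between treatments. All comparisons with WT of 1 piece share the same 2 WT libraries. The p-values rest on the spread between libraries within groups, estimated over all 16 libraries, and this spread may be technical. In whole fragments, more cells of a type and more miRNA per cell cannot be told apart either.

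A miRNA is a short RNA that guides Argonaute proteins to messenger RNAs, mostly through its seed, bases 2 to 8. The miR-29 family is made from a pair of hairpin clusters and is abundant in many differentiated tissues. Its best known targets are the transcripts of collagens and other matrix proteins and of the DNA methyltransferases Dnmt3a and Dnmt3b, and it is low in mouse embryonic stem cells. The kinase mTOR promotes growth when nutrients are plentiful, and blocking it holds blastocysts in a paused state that resembles diapause, the natural arrest before implantation.

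The mature sequences show how close the family members are, which bears on what a count of miR-29a-3p can hold. They come from the RefSeq table for build GRCm38.p6, run 5′ to 3′, and have the seed in capitals.
miR-29a-3p: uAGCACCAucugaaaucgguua
miR-29b-3p: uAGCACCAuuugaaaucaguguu
miR-29c-3p: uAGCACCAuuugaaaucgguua
These 3 names share their seed, and no other of the listed names found in that table has it. Counted from 1 at the 5′ end of miR-29a-3p, miR-29c-3p differs by 1 substitution, C10U. miR-29b-3p differs by 4, C10U, G18A, U21G and A22U, and is 1 base longer.

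The precursor of miR-29a-3p is the 88-base hairpin of Mir29a on chromosome 6, positions 31062660 to 31062747 of the minus strand, in which miR-29a-3p spans 31062673 to 31062694. It is printed here with its mature arms in capitals, miR-29a-5p first and miR-29a-3p second, since each arm has a name of its own in the count files.
Mir29a hairpin: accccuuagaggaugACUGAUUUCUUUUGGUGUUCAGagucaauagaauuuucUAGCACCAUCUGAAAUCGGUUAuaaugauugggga
In the GENCODE annotation of GRCm38, Mir29a overlaps no other gene and lies 276 bases from Mir29b-1 (31063023 to 31063093) on the same strand. The 5′ end of Mir29b-1, at positions 31063092 and 31063093, overlaps an exon of the long noncoding RNA Gm27019 (31063092 to 31063495). The other cluster, Mir29b-2 (195037040 to 195037120) and Mir29c (195037547 to 195037634), lies on chromosome 1, in an exon of the noncoding A330023F24Rik on the same strand and in an exon of Cd46 on the opposite strand.

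miR-29a-3p was the single family member with more than a few counts. It had 128 counts in all, of 122251 miRNA counts, and was seen in 13 of 16 libraries. miR-29b-3p, miR-29c-3p, miR-29a-5p, miR-29b-2-5p and miR-29c-5p had 0 counts in every library, which allows each a share of up to 0.00245% of all counts. In the summed polar mTORi libraries, a count of 0 allows up to 0.0343%. miR-29b-1-5p, the other arm of the hairpin next to Mir29a, had 3 counts, of which 2 were in mural mTORi replicate 1 and 1 was in polar diapaused replicate 2.

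How reads that suit more than 1 mature sequence were counted is not given in the sources used here. miR-29b-3p has 2 precursors in the RefSeq table, and miR-29c-3p has 1. Of the 1679 listed names found in that table, 53 have 2 or more positions, and 10 of these (18.9%) had a count in any library, against 406 of 1626 names (25.0%) with 1 position. Enough counts to be tested, as described below, were found for 1 of the 53 (1.89%) and for 88 of the 1626 (5.41%). Whether the counts of miR-29a-3p hold reads of miR-29b-3p or miR-29c-3p was not tested, and their 0 counts do not show that they were absent.

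Libraries held 1744 to 20051 miRNA counts, and mTORi libraries were shallow, with 2184 to 4386. Diapaused libraries held 9049 to 20051, mural WT libraries 6435 and 8366, and polar WT libraries 1744 and 4940. Intervals below are exact 95% binomial or ratio intervals and cover counting error alone. The miR-322/miR-503 names, listed as markers of mural trophectoderm, held 2.63% to 7.54% of counts in mural libraries and 0.401% to 1.97% in polar ones, so no polar library reached a mural one. The miR-290/miR-295 cluster and miR-302/miR-367, listed as markers of pluripotent cells, held 27.9% to 55.5% of every library of either piece. They held 51% and 55.5% in polar WT and 51% and 50.2% in mural WT libraries. They thus did not set apart the piece with the inner cell mass. Polar mTORi replicate 3 stood apart, with 25.8% of its counts in miR-203-3p and miR-205-5p, miRNAs of stratified epithelium.

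In polar fragments of mTORi blastocysts, miR-29a-3p had 18, 13 and 15 counts, or 0.588%, 0.595% and 0.428% of the miRNA counts of replicates 1 to 3. The counting intervals were 0.349% to 0.928%, 0.317% to 1.02% and 0.24% to 0.706%. The 3 libraries lay within counting error of each other, and miR-29a-3p ranked 32, 34 and 33 among all names in them.

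In polar WT fragments it had 0 counts in replicate 1, which allows up to 0.172% in that shallow library, and 2 counts in replicate 2, or 0.0405% (interval 0.0049% to 0.146%). In polar diapaused fragments it had 4, 4 and 0 counts, or 0.0276%, 0.0421% and, at 0 counts, up to 0.0332%. Every polar mTORi library was above every polar WT and diapaused library, and the intervals of the mTORi libraries did not reach those of the other polar libraries.

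In mural fragments of mTORi blastocysts it had 8, 11 and 14 counts, or 0.182%, 0.304% and 0.401% of counts. The intervals were 0.0788% to 0.359%, 0.152% to 0.544% and 0.219% to 0.672%. Its rank was 60, 45 and 36. These libraries overlapped in their intervals and lay below the polar mTORi ones.

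In mural WT fragments it had 0 counts in replicate 1, which allows up to 0.0466%, and 4 counts in replicate 2, or 0.0478% (interval 0.013% to 0.122%). In mural diapaused fragments it had 11, 22 and 2 counts, or 0.0873%, 0.11% and 0.0135%. The third library was lower than the other two, with an interval of 0.00164% to 0.0488% against 0.0436% to 0.156% and 0.0688% to 0.166%. Every mural mTORi library was above every other mural library, although counting intervals overlapped. That of mural mTORi replicate 1 reached into those of mural WT replicate 2 and mural diapaused replicates 1 and 2, and that of mural mTORi replicate 2 into those of mural diapaused replicates 1 and 2.

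**Figure D1:**
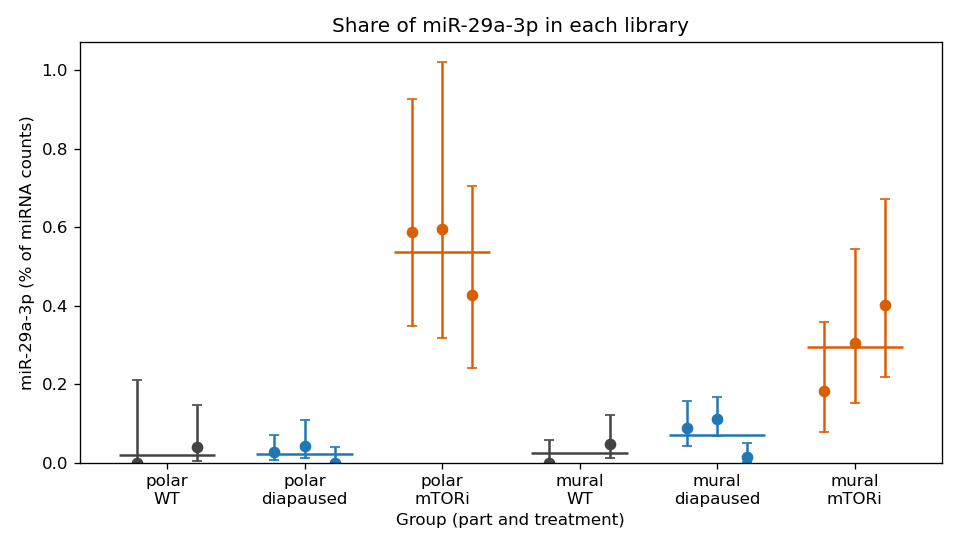
Share of miR-29a-3p (% of miRNA counts, vertical axis) in each of the 16 libraries, by group; points are libraries in replicate order, bars are exact 95% counting intervals and horizontal lines are group means. The 6 mTORi libraries lie between 0.182% and 0.595%, and the other 10 lie at or below 0.11%.

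By group mean, the order from the highest was polar mTORi at 0.537% ± 0.0943 (SD, n = 3), mural mTORi at 0.296% ± 0.11 (n = 3), mural diapaused at 0.0702% ± 0.0503 (n = 3), mural WT at 0.0239% ± 0.0338 (n = 2), polar diapaused at 0.0232% ± 0.0214 (n = 3) and polar WT at 0.0202% ± 0.0286 (n = 2). Polar mTORi was separated from mural mTORi, and mural mTORi from mural diapaused, with no overlap of libraries. Mural diapaused, mural WT, polar diapaused and polar WT overlapped, so their order is not settled by these libraries.

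The mTORi libraries together held 79 of the 128 counts (61.7%) in 16.6% of all miRNA counts, the diapaused ones 43 counts (33.6%) in 65.9%, and the WT ones 6 counts (4.69%) in 17.6%. The mTORi libraries thus held most counts of miR-29a-3p in the smallest share of the sequencing. The highest single count, 22, was in the deepest library of the series, mural diapaused replicate 2, and there it was 0.11% of 20051 counts.

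**Figure D2:**
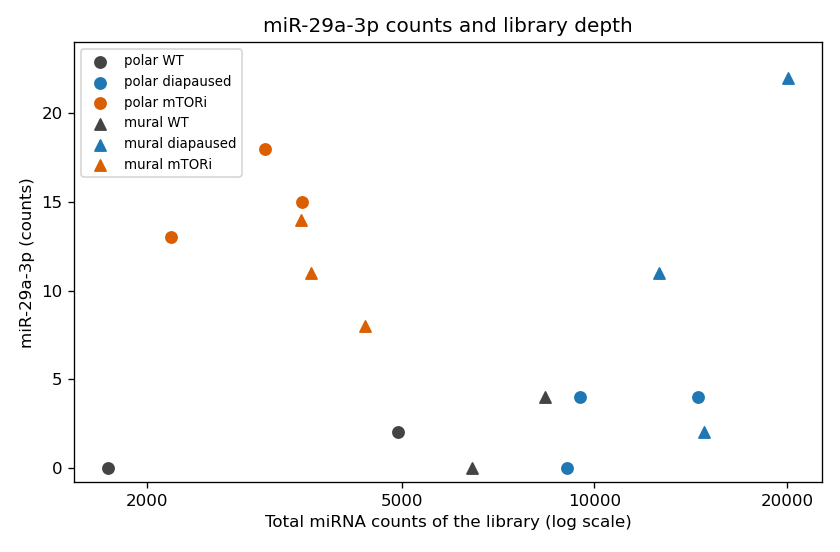
Counts of miR-29a-3p (vertical axis) against the total miRNA counts of the library (horizontal log axis); circles are polar and triangles mural libraries, coloured by treatment. The mTORi libraries, with 2184 to 4386 counts in all, have 8 to 18 counts of miR-29a-3p, and the diapaused libraries, with 9049 to 20051, have 0 to 22.

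Relative to WT, the share of miR-29a-3p in mTORi blastocysts was 17.6 times as high in polar fragments (46 against 2 counts, interval 4.6 to 149) and 10.6 times as high in mural ones (33 against 4 counts, interval 3.78 to 41.3). Relative to diapaused blastocysts, it was 21.7 times as high in polar fragments (46 against 8 counts, interval 10.2 to 53.3) and 3.9 times as high in mural ones (33 against 35 counts, interval 2.35 to 6.45). The same mTORi libraries enter the ratios to WT and to diapaused blastocysts, so these are not independent. The ratio to mural WT was 6.01 without mural WT replicate 1, which has 0 counts, and the ratio to mural diapaused was 6.06 without mural diapaused replicate 2. Between the pieces of mTORi blastocysts, the polar share was 1.83 times the mural one (interval 1.15 to 2.96), again without overlap of libraries. By replicate number, the polar and mural shares were 0.588% and 0.182%, 0.595% and 0.304%, and 0.428% and 0.401%, closest in replicate 3. Without overlap the polar share is higher under any matching of libraries, and no pairing is labelled, so the matching adds nothing. The interval of this ratio included 1 without mural mTORi replicate 1 (1.49, interval 0.899 to 2.54) and without polar mTORi replicate 1 (1.71, interval 0.998 to 2.93). These contrasts hold the libraries for which the miRNA was chosen, and no p is given for them.

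These directions were the same with another denominator. Counts of the miR-290/miR-295 cluster and miR-10b-5p are a large part of every library and were left out of the totals, which left 41.8% to 69.2% of the counts of a library. miR-29a-3p then held 0.62% to 1.25% of the remaining counts in polar mTORi and 0.434% to 0.925% in mural mTORi libraries. It reached at most 0.0927% among polar WT, 0.0844% among polar diapaused, 0.103% among mural WT and 0.245% among mural diapaused libraries, so the mTORi libraries again lay above all others. The polar and mural mTORi libraries overlapped on this scale, and their ratio was 1.38 with an interval that includes 1 (0.866 to 2.23).

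**Figure D3:**
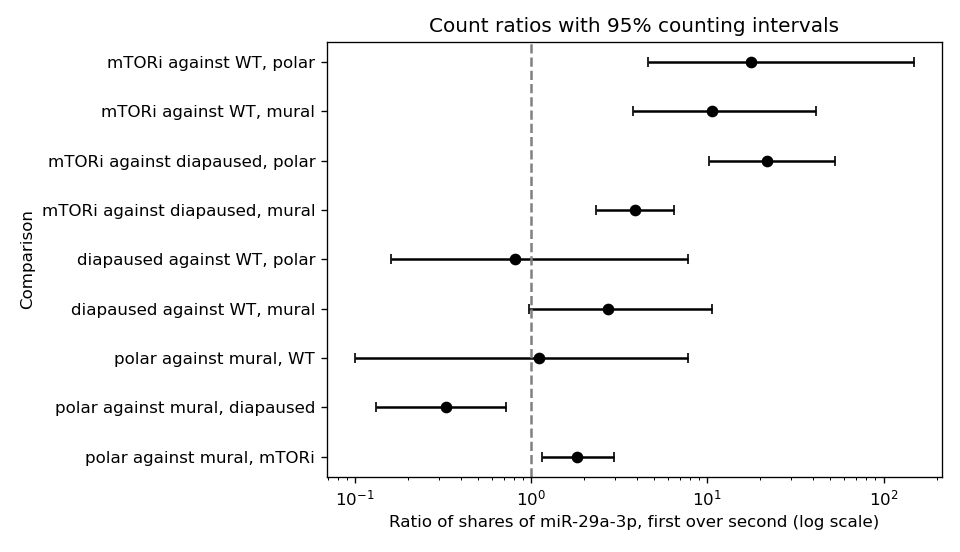
Ratio of the share of miR-29a-3p in the first group over the second (log axis) for 9 comparisons, from summed counts, with exact 95% counting intervals; the dashed line marks a ratio of 1. The mTORi comparisons with WT and with diapaused blastocysts lie between 3.9 and 21.7, and the intervals for diapaused against WT and for polar against mural WT cross 1.

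To place the miRNA among the others, 102 names with enough counts were fitted together with edgeR's quasi-likelihood test over all 16 libraries. The fitted log2 difference of miR-29a-3p between mTORi and WT was 3.49 in mural fragments, the highest of the 102, and 4.26 in polar fragments, the third highest. The names above it in polar fragments were miR-203-3p (log2 4.61) and miR-221-3p (log2 4.5), the latter named after its values were seen. These fitted values rest on WT groups with 2 and 4 counts and are given for their place alone. In its mean level over the 6 groups, miR-29a-3p was 71st of 102, at 1747 CPM (counts scaled with TMM factors to a library of 1000000), between miR-151-5p at 1858 and miR-23b-3p at 1738.

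Of the 102 tested names, 1 had every mTORi library above every WT and diapaused library, and that name was miR-29a-3p (0.98% of names, by share and by CPM alike). In the opposite direction, 3 names (2.94%) had every mTORi library below all others. Within polar fragments alone, 18.6% of names had all mTORi libraries above the WT ones, and within mural fragments 17.6% did. Since miR-29a-3p was chosen for this level, the counts describe it and support nothing.

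Diapaused and WT blastocysts, which hold no mTORi library, were compared to ask whether miR-29a-3p also differed in natural pausing. The same WT libraries enter the choice of this miRNA. It had enough counts to be fitted over all 16 libraries through its mTORi libraries alone. No WT or diapaused library reached the level that the filter on low counts asks for. The tests below, also those between the pieces, thus depend on the level for which it was chosen. With only the compared groups fitted, mural diapaused against WT alone still gave a value. In mural fragments, the 0 and 4 counts of WT and the 11, 22 and 2 counts of diapaused libraries gave a ratio of shares of 2.73 (interval 0.975 to 10.6). The log2 difference was 1.69 (SE 1.02, edgeR adjusted p = 0.398), which is not called at an adjusted p under 0.05, where 9.8% of the 102 names were called. Without mural WT replicate 1 it was 0.88, and without mural WT replicate 2 it was 5.64 against a library with 0 counts, and neither was called.

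In polar fragments, 8 counts in diapaused and 2 in WT libraries gave a ratio of 0.809 (interval 0.161 to 7.82). The log2 difference was -0.32 (SE 1.44, edgeR adjusted p = 0.957), with 7.84% of names called. The sign turned to 0.20 without polar diapaused replicate 3 and to 3.76 without polar WT replicate 2, when WT is at 0 counts and the value is no bound, so no direction can be given at this depth. Whether the difference in mural fragments departs from that in polar ones was not tested.

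The 2 pieces of the blastocyst were then set against each other within each treatment. In WT, the ratio of polar to mural share was 1.11 (2 against 4 counts, interval 0.1 to 7.73) and the log2 difference was 0.11 (SE 1.56, edgeR adjusted p = 0.974, with 10.8% of names called). Its sign turned to -4.15 without polar WT replicate 2, which again leaves 0 counts, and to -0.74 without mural WT replicate 1. In diapaused blastocysts the polar share was lower, with 8 against 35 counts and a ratio of 0.328 (interval 0.132 to 0.72). The log2 difference was -1.90 (SE 0.83, edgeR adjusted p = 0.125, with 18.6% of names called). The counting interval excludes a ratio of 1, but the difference was not called, and without mural diapaused replicate 2 the ratio was 0.51 with an interval that includes 1 (0.183 to 1.33). Mural diapaused replicate 3 (0.0135%) lay among the polar diapaused libraries. In mTORi blastocysts the ratio was 1.83, with the limits given above. The ratios in diapaused and mTORi blastocysts were not tested against each other.

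miRNAs outside the miR-29 family that are known to target DNA methyltransferase transcripts were followed as a list of 7, of which 5 were tested. In mTORi against WT, 2 of 5 rose in polar fragments, where 22.5% of all tested names were called (12.7% higher and 9.8% lower, or 13 and 10 names, against 11 and 15 with library size alone). In mural fragments 1 of 5 rose, where 11.8% were called (5.88% in each direction, or 6 and 6 names, against 4 and 7 with RLE factors), and none of the 5 fell in either piece. The median log2 difference of the 5 was 1.18 in polar and -0.27 in mural fragments, beside 0.18 and -0.06 over all tested names. In diapaused against WT it was 0.91 in polar and -0.05 in mural fragments, beside 0.095 and 0.19.

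miR-148a-3p, known to target Dnmt1, was the member that rose in both pieces. In polar fragments it held 1.72% and 1.34% of counts in WT, 2.79%, 2.69% and 3.41% in diapaused and 3.46%, 3.43% and 2.34% in mTORi libraries. In mural fragments it held 0.559% and 0.574% in WT, 1.55%, 1.61% and 1.31% in diapaused and 2.14%, 1.94% and 2.41% in mTORi libraries. Its WT libraries lay below all paused libraries of the same piece. The log2 difference between mTORi and WT was 1.18 (SE 0.27, edgeR adjusted p = 0.0131) in polar and 2.02 (SE 0.28, edgeR adjusted p = 0.00012) in mural fragments. The other riser in polar mTORi fragments was its family member miR-148b-3p (log2 1.9, SE 0.61, edgeR adjusted p = 0.0305), named after its values were seen.

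In diapaused against WT, 2 of the 5 rose in polar fragments, where 5.88% of all tested names rose and 1.96% fell (6 and 2 names, against 6 and 7 with RLE factors). They were miR-148a-3p and miR-152-3p, the latter also a Dnmt1-targeting miRNA and on the list of stromal markers. miR-152-3p had 1 count in polar WT and 93 in polar diapaused libraries. It passed the filter on low counts through polar libraries of paused blastocysts alone, where it is high, so its calls depend on that level. In mural fragments 1 of 5 rose, miR-148a-3p, where 7.84% of names rose and 1.96% fell (8 and 2 names, against 3 and 2 with RLE factors or library size alone). miR-101a-3p, known to target the Polycomb enzyme Ezh2, and its relative miR-101b-3p were not called in any comparison with WT. Against diapaused, miR-101a-3p was higher in polar mTORi fragments (log2 1.66, SE 0.42, edgeR adjusted p = 0.0127), where 7.84% of tested names were higher. It was not called in mural ones (log2 0.25, edgeR adjusted p = 0.72). Within diapaused blastocysts it was lower in polar than in mural fragments (log2 -1.3, SE 0.4, edgeR adjusted p = 0.0335).

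miRNAs known to rise with differentiation or to restrain growth, among them let-7, miR-26, miR-30 and miR-15/miR-16 members, made a list of 25 with 15 tested, which also holds both miR-101 names. In mTORi against WT, 2 of 15 rose in each piece, where 12.7% of all tested names rose in polar and 5.88% in mural fragments, so the polar count is near the background. None of the 15 fell, but 1 fell in each piece with the replicate block, and with library size alone 1 rose and 1 fell in polar fragments. The risers were the same names in both pieces, miR-26b-5p and miR-30d-5p. miR-26b-5p rose by log2 1.46 (SE 0.41, edgeR adjusted p = 0.0187) in polar and by 1.53 (SE 0.40, edgeR adjusted p = 0.0173) in mural fragments. miR-30d-5p rose by 1.24 (SE 0.38, edgeR adjusted p = 0.0245) and 1.59 (SE 0.35, edgeR adjusted p = 0.00477).

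In diapaused against WT, 1 of the 15 rose in polar fragments, miR-30d-5p. In mural fragments 3 of 15 rose, miR-30d-5p, let-7d-5p and miR-30b-5p, the last 2 named after their values were seen. let-7d-5p and miR-30b-5p reached the level of the filter on low counts in no WT library. They were thus tested through paused libraries alone, and their calls depend on that level. Over all tested names 5.88% rose in polar and 7.84% in mural fragments, so the polar count is near the background. None of the 15 fell. The median log2 difference of the 15 in diapaused against WT was 0.68 in polar and 1.08 in mural fragments, beside 0.095 and 0.19 over all tested names. In mTORi against WT it was 0.77 and 1.15, beside 0.18 and -0.06. These medians of both paused states against WT were close, but they share the same WT libraries. With mTORi set directly against diapaused blastocysts, the median of the 15 was 0.70 in polar and -0.30 in mural fragments. Over all tested names it was -0.12 and -0.41. The calls of both lists rest on few WT libraries: in polar mTORi against WT they went from 4 to 1 without polar WT replicate 1 and to 0 without polar WT replicate 2, and in mural fragments from 3 to 1 without either WT library.

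Between the pieces, both lists together had 1 call in WT, where 3.92% of tested names were higher and 6.86% lower in polar fragments. They had 2 calls in diapaused blastocysts, where 4.9% were higher and 13.7% lower. That balance depends on the scaling: the 5 higher and 14 lower names became 13 and 2 with library size alone, which moved the median log2 difference of all tested names from 0.105 to 0.575, and 9 and 9 with no filter on low counts. The list calls, 1 higher and 1 lower, became 2 higher and 0 lower with either RLE factors or library size alone. The lists had 1 call in mTORi blastocysts, where 4.9% of names were called (2.94% higher and 1.96% lower, or 3 and 2 names, against 3 and 1 with library size alone). The member called higher in polar fragments of both paused states was miR-152-3p, which was tested through paused polar libraries alone. It had 93 counts in polar and 5 in mural diapaused libraries, and 11 in polar and 0 in mural mTORi libraries. miR-29a-3p, in contrast, had counts in all libraries of both pieces under the inhibitor.

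**Figure D4:**
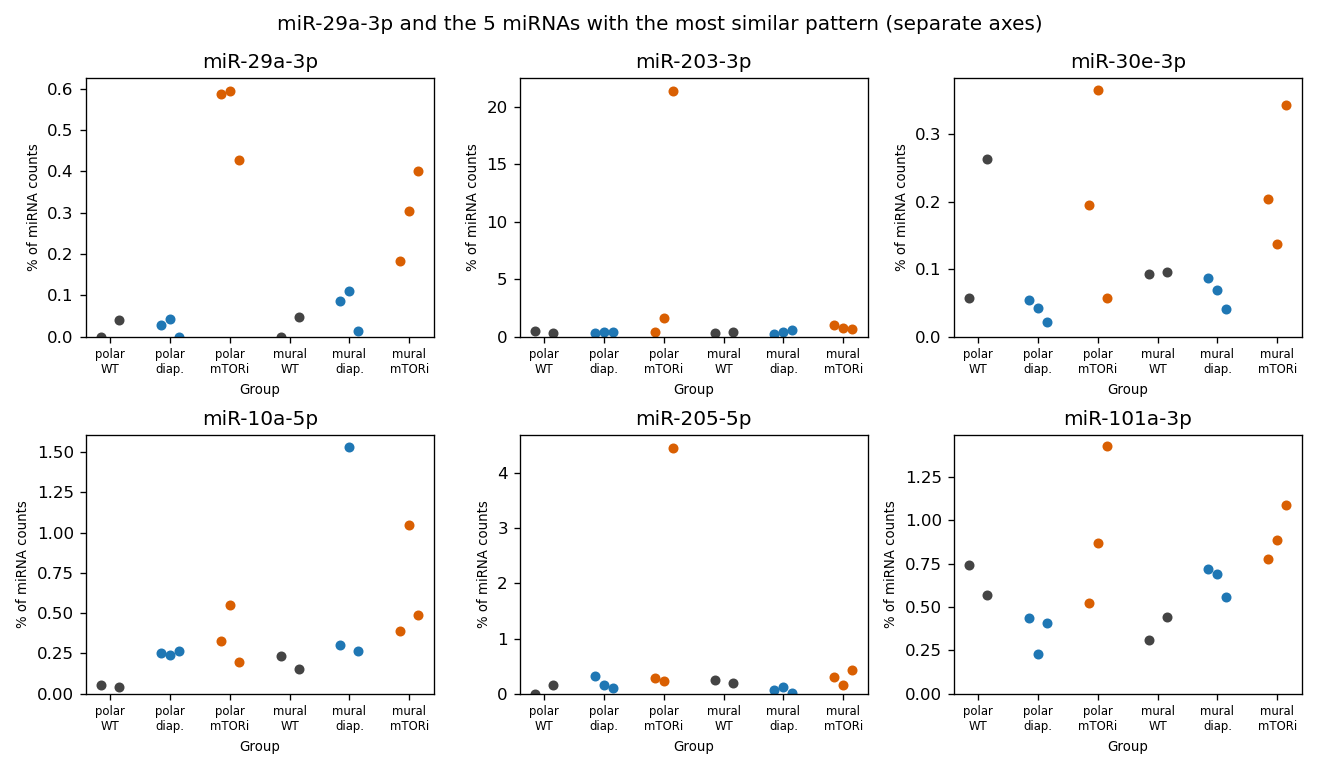
Share of miRNA counts (%, separate vertical axes) of miR-29a-3p and of the 5 miRNAs with the highest Spearman rho to it, in the 6 groups; points are libraries, coloured by treatment. miR-203-3p reaches 21.4% and miR-205-5p 4.46% in 1 polar mTORi library, and miR-29a-3p is at 0.428% to 0.595% in all 3.

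The 5 tested names whose pattern over the 16 libraries was most like that of miR-29a-3p were miR-203-3p (Spearman rho 0.708, Pearson r 0.568), miR-30e-3p (0.687, 0.681), miR-10a-5p (0.649, 0.531), miR-205-5p (0.619, 0.614) and miR-101a-3p (0.617, 0.675). These values were computed on log2 CPM over libraries whose depth and composition all names share, and they carry no test. Their mature sequences are printed to show that none has the seed of miR-29a-3p.
miR-203-3p: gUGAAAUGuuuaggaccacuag
miR-30e-3p: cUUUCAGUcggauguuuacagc
miR-10a-5p: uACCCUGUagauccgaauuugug
miR-205-5p: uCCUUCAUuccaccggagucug
miR-101a-3p: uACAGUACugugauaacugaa
In each of the 5, levels in mTORi libraries overlapped those of WT or diapaused libraries. miR-101a-3p was at 0.523%, 0.87% and 1.43% in polar mTORi and 0.775%, 0.886% and 1.09% in mural mTORi libraries. Its WT libraries reached 0.745% and its diapaused ones 0.722%, above polar mTORi replicate 1.

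miR-30e-3p, the 3′ arm of a miR-30 hairpin, was at 0.196%, 0.366% and 0.0571% in polar mTORi libraries and overlapped its polar WT levels of 0.0573% and 0.263%. miR-10a-5p, from a Hox cluster, was higher in diapaused than in WT libraries of either piece, at 0.242% to 0.265% against 0.0405% and 0.0573% in polar and at 0.263% to 1.53% against 0.155% and 0.233% in mural fragments. Neither difference was called by edgeR (adjusted p = 0.159 in polar and 0.0524 in mural fragments). The 3 names least like miR-29a-3p were miR-298-5p (rho -0.828), miR-183-5p (rho -0.817) and miR-340-5p (rho -0.8). miR-340-5p had 0 counts in all 6 mTORi libraries, and 20 and 2 counts in polar and mural WT. miR-298-5p, from the imprinted Gnas locus, had 1 count in polar mTORi against 12 in polar WT, and 5 in mural mTORi against 28 in mural WT libraries. Without polar mTORi replicate 3, 2 of the 5 most similar names stayed among the first 5, and miR-30e-3p was first (rho 0.778).

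Markers of other cell types were followed beside miR-29a-3p, which many differentiated cells express. The 2 miRNAs of stratified epithelium held 0.719%, 1.83% and 25.8% of the counts in polar mTORi libraries, 0.459% and 0.526% in polar WT, 0.941% to 1.28% in mural mTORi and 0.575% and 0.634% in mural WT libraries. In diapaused libraries they held 0.508% to 0.607% in polar and 0.341% to 0.581% in mural fragments. Among polar mTORi libraries, miR-29a-3p was at 0.588% in replicate 1, where they were lowest, and at 0.428% in replicate 3, where they were highest. Their 25.8% in replicate 3 lowers the share of every other name there. A link between them and miR-29a-3p was not tested. Without replicate 3, the ratio of miR-29a-3p to polar WT was 19.8.

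The 9 stromal miRNAs held 0.778% to 4.68% of the counts in polar mTORi libraries, with the highest value again in replicate 3. They held 0.516% and 0.668% in polar WT and 1.23% to 1.85% in polar diapaused libraries. All polar diapaused values lay above polar mTORi replicates 1 and 2 (1.14% and 0.778%). In mural fragments the stromal miRNAs held 0.73% to 1.35% in mTORi, 0.562% and 0.932% in WT and 0.627% to 1.64% in diapaused libraries. miR-199a-3p, miR-199a-5p and miR-199b-5p, known from fibroblast-like cells, had 0 counts in every library. So did let-7a-5p and let-7c-5p, which are widespread, and miR-26a-5p, miR-30c-5p and miR-16-5p had 1, 1 and 2 counts in all, names given here after their values were seen. A count of 0 in these files therefore does not show that a miRNA, or a cell type marked by it, was absent. The 7 leukocyte miRNAs held 0.0327% to 0.366% in polar mTORi and 0.115% and 0.405% in polar WT libraries, and 0.0228% to 0.315% in mural mTORi against 0% and 0.0239% in mural WT libraries. In diapaused libraries the leukocyte miRNAs held 0.0315% to 0.138% in polar and 0.0159% to 0.0299% in mural fragments. The part of these cell types in the level of miR-29a-3p was not tested.

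The 6 erythroid miRNAs held 0% to 0.275% in polar mTORi and 0.143% to 0.205% in mural mTORi libraries. In WT they held 0.115% and 2.43% in polar and 0.109% and 0.0956% in mural libraries. The highest value, in polar WT replicate 2, was mostly miR-451a, at 2.29%. That library holds the 2 polar WT counts of miR-29a-3p and is also the deeper polar WT library, with 4940 against 1744 counts. A link between the erythroid miRNAs and miR-29a-3p was not tested. The 2 endothelial miRNAs held at most 0.0571% in polar mTORi and 0.086% in mural mTORi, against at most 0.121% and 0.0155% in WT libraries. The 3 liver miRNAs held 0.143% to 0.229% in polar mTORi and 0.083% to 0.258% in mural mTORi, against 0.172% and 0.202% in polar WT and 0.186% and 0.108% in mural WT libraries. The 9 neural miRNAs held at most 0.0857% in polar mTORi and 0.086% in mural mTORi libraries, in replicate 3 of each, and had 0 counts in WT. The 6 muscle miRNAs had 0 counts in all mTORi and WT libraries. In polar diapaused libraries, erythroid miRNAs held 0.0207% to 0.166%, endothelial 0.0421% to 0.122%, liver 0.243% to 0.41%, neural 0% and muscle at most 0.0105%. In mural diapaused libraries, erythroid miRNAs held 0.0238% to 0.0743%, endothelial at most 0.0249%, liver 0.0555% to 0.125%, neural at most 0.0203% and muscle 0.0159% to 0.0898%.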

How the data were processed

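Small RNA was ligated to adapters with unique molecular identifiers, amplified in 12 to 20 cycles without size selection and read as 75-base single reads, per the labels' protocols. The deposited values are raw counts per mature miRNA name. Per the submitters' processing notes, the build was GRCm38. Not given in the sources used here are the aligner, the counter, the annotation version and any collapsing of identifiers. Tissue and treatment labels set the groups, also for the mural mTORi libraries, whose titles name no piece and contain both mTORi and diapaused; no batch is labelled. In edgeR 4.0.16 (R 4.3.3), filterByExpr (minimum count 10, minimum total 15) kept 102 names with 92.83% to 97.61% of counts. TMM factors and 1 mean per group were used over 16 libraries, with two-sided tests and Benjamini-Hochberg adjustment over the 102 names, called under 0.05. Alternatives were DESeq2 1.42.0, its size factors (RLE), library size alone, no filter, the compared groups alone and each library left out. Logarithms of CPM used a prior count of 2. The model was also run on simulated counts with 1 fixed dispersion and no outlying library. That run cannot show how the tests behave on these libraries. Shares and count ratios have exact 95% intervals (Clopper-Pearson), and 3 counts give the limit for a count of 0. Contrasts with mTORi libraries were not tested for miR-29a-3p. Named miRNAs were the miR-29 family, the 5 most and 3 least like names, up to 3 members of each of 13 lists by level, and the neighbours in mean level. The member and the lists were chosen with earlier results of these data known. Same-numbered polar and mural mTORi libraries had deviations with r of 0.112 to 0.183 in 3 pairs. Same-numbered libraries of 1 piece from different treatments, which share no blastocysts, gave r of -0.218 to 0.231. Polar and mural WT pairs had r of 0.307, and diapaused pairs 1 to 3 had 0.11, -0.0114 and 0.364, so 0.307 and 0.364 lay above that range. In mTORi the same number gave the highest r in all 3 pairs, as it did between polar mTORi and polar diapaused libraries. The values are mixed and do not settle whether libraries are paired, and the labels name no pairing. The model has no pairing, and the replicate block is an alternative.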

Additional observations from a re-analysis of the deposited data

How the results depend on the processing

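The shares of miR-29a-3p rest on 0 to 22 counts per library, so depth limits statements on WT and polar diapaused. Its 5 ratios with mTORi libraries kept their direction under both other denominators and with each library left out for which a ratio could be formed. Of the others, polar diapaused against WT went from 0.809 to 1.11 without polar diapaused replicate 3, and polar against mural WT from 1.11 to 0.626 without mural WT replicate 1. Without each library in turn, values were 13 to 19.8 for polar mTORi against WT, 6.01 to 13 for mural mTORi against WT, 15.8 to 31 and 2.84 to 6.06 against diapaused (polar and mural), and 1.49 to 2.21 for polar against mural mTORi. No ratio could be formed without polar WT replicate 2 or mural WT replicate 2, which hold all WT counts of their piece.

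None of the 4 tested differences was called by edgeR or DESeq2 in any setting (the lowest adjusted p was 0.0656, for polar against mural in diapaused without mural diapaused replicate 3). Polar diapaused against WT reversed to 0.20 without polar diapaused replicate 3 and to 3.76 without polar WT replicate 2, and its range was -0.96 to 3.76. Polar against mural WT reversed to -4.15 without polar WT replicate 2 and to -0.74 without mural WT replicate 1, and ranged up to 4.02. Mural diapaused against WT ranged from 0.88 to 5.64, and polar against mural diapaused from -2.38 to -1.32. With the compared groups alone, miR-29a-3p stayed among the tested names for mural diapaused against WT (1.62) and gave no value for the other 3 differences. With the replicate block, the 4 differences were -0.05, 1.85, 0.06 and -1.83, with no call.

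For the lists of methyltransferase-targeting and differentiation miRNAs together, calls went from 3 to 0 (polar diapaused against WT) and from 4 to 0 (polar mTORi against WT) with no filter on low counts. With the compared groups alone they went from 4 to 0 in polar and from 3 to 5 in mural mTORi against WT. Between the pieces, calls were 0 in WT and 1 in diapaused without the filter; 2, 4 and 3 in WT, diapaused and mTORi with DESeq2; 0, 5 and 0 with the compared groups alone; and 2 in mTORi with RLE factors. Leaving out a library gave 0 to 2 and 0 to 3 calls in polar and mural diapaused against WT, 0 to 4 and 1 to 3 in polar and mural mTORi against WT, and 0 to 1, 0 to 1 and 0 to 2 between the pieces. Mural diapaused against WT had 0 of these, and of all names, without mural WT replicate 2, and polar diapaused against WT had 0 without polar diapaused replicate 2 or polar WT replicate 1. The replicate block left these counts within 1.5 times, with 1 lower call in each piece of mTORi against WT (5 and 4 calls). The causes were not tested.

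Over all tested names, calls in polar diapaused against WT went from 8 to 13 with RLE factors and 15 with DESeq2. In mural diapaused against WT they went from 10 to 5 with RLE factors or library size alone. With the compared groups alone they went from 23 to 2 in polar and from 12 to 22 in mural mTORi against WT. Between the pieces, calls of 11, 19 and 5 in WT, diapaused and mTORi became 20, 30 and 10 with DESeq2 and 7, 29 and 0 with the compared groups alone, and the 5 became 9 with no filter. With 1 library fewer there were 2 to 7 and 0 to 6 calls in polar and mural diapaused against WT, 4 to 28 and 6 to 8 in polar and mural mTORi against WT, and 4 to 8, 5 to 11 and 0 to 6 between the pieces. The lowest were 4 and 7 in polar mTORi against WT (without polar WT replicates 2 and 1) and 0 in polar against mural mTORi (without any 1 mural mTORi library).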
